A study of Mus musculus with 12 samples.

Results

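The genes described here encode the receptors and surface enzymes through which microglia and macrophages sense and break down extracellular nucleotides: P2ry12, P2ry13, P2ry6, P2ry14, P2rx4, P2rx7 and Adora3 as receptors, and Entpd1, Nt5e and Cd38 as ectoenzymes. They were chosen by name, 10 of the 25904 genes in the deposited table, and each was found by its Ensembl identifier. ATP that leaves a damaged or active cell is trimmed outside it, by CD39 (encoded by Entpd1) to ADP and AMP and by CD73 (Nt5e) from AMP to adenosine, so the same released molecule reaches in turn the ATP-gated channels P2X4 and P2X7, the ADP receptors P2Y12 and P2Y13 and the adenosine receptors. UDP, a related signal, acts on P2Y6, and UDP-glucose on P2Y14. CD38 mainly consumes NAD, and is listed here with the enzymes that act on extracellular nucleotides. In resting microglia P2Y12 is a widely used marker and guides the processes toward sites of ATP release.

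RNA was sequenced from sorted C57BL/6 cells in 12 libraries, 3 in each of 4 groups. WT microglia came from Tgfbr2 fl/fl mice without Cre and Tgfbr2 KO microglia from Cx3cr1CreER/+ Tgfbr2 fl/fl mice, both sorted from the brain and the spinal cord, 18 to 22 days after the mice had received 5 mg tamoxifen under the skin on 3 days in a row. Tgfbr2 encodes a subunit of the TGF-beta receptor. WT and KO macrophages descended from bone marrow of the same 2 genotypes, placed in irradiated Cx3cr1CreER/+ R26DTA/+ hosts. In these hosts tamoxifen, given 6 weeks later, killed the resident microglia, and the cells that refilled the central nervous system were sorted 18 to 22 days after that. All mice thus received tamoxifen, and both macrophage groups shared the irradiation and the depletion. Several features limit the groups as models. The Cre was driven by Cx3cr1 and took up 1 allele of that gene in the KO cells only. Live CD11b+ Ly6C- cells were sorted, with F4/80 low for WT and high for KO, so gate and genotype cannot be told apart. Host cells that survived were not separated from donor cells, and each library pooled 1 to 5 mice, so p-values measure the spread between pools.

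Libraries held 2615404 to 6364994 reads in genes. The values are normalized counts (gene counts divided by a size factor of the library), and 1 read was worth 0.718 to 1.601 of them. Tgfbr2 was at a mean of 2898 in WT and 2193 in KO microglia and at 3303 in WT and 2235 in KO macrophages, values that count reads from the whole gene, deleted exons or not. Summed levels of a list of 10 microglial marker genes that holds none of these 10 ranged from 56972 to 72907 in WT microglia, 5016 to 5504 in KO microglia, 17966 to 18808 in WT macrophages and 5492 to 6308 in KO macrophages. The microglial transcription factor Sall1 averaged 6360.3, 338, 7.31 and 11.5 in the same order. A list of 8 genes of macrophages at the brain's borders ran the other way, at 308 to 380 in WT microglia and 21932 to 26260 in KO microglia, with 11871 to 12689.5 in WT and 24202 to 28078 in KO macrophages. Ddx3y, a Y-linked gene, was at 470 to 508 in all 3 KO microglia libraries and above 10 in 1 library of 3 in each other group, so the sexes were spread unevenly. In bulk libraries, fewer cells that express a gene and less RNA per cell cannot be told apart.

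All 10 genes passed the filter for testing (10 or more normalized counts in 3 or more libraries), Nt5e only through its values in KO macrophages, so Nt5e is left out of the counts and medians of comparisons that involve that group. A gene was called where the limma test across all 12519 genes gave a Benjamini-Hochberg adjusted p under 0.05. In KO against WT microglia 8 of the 10 were called, 4 higher and 4 lower, against 42.5% of all genes tested (21.9% higher and 20.6% lower). In KO against WT macrophages 6 of the other 9 were called, 3 higher and 3 lower, against 31.4% (16% and 15.4%). Between WT macrophages and WT microglia 8 were called, 4 in each direction, against 39.4% (19.2% higher in the macrophages and 20.2% lower). Between KO macrophages and KO microglia 6 of the 9 were called, 4 higher in the macrophages and 2 lower, against 10.5% (5.45% and 5.05%). This count was 4 with Ddx3y as a covariate. A further setting left out the 5 libraries whose titles carry numbers in the 100s, a series that the labels do not explain. It kept 1 library each of WT and KO microglia but every WT macrophage library. Title series and cell origin thus partly go together, and log2 values from that setting are given without p-values. The difference of the 2 KO effects, tested as an interaction, was called for 8 of the 9, 4 in each direction, against 25.8% (13% above 0 and 12.9% below). The comparisons share groups of libraries, so their counts are not independent of each other. The median log2 change over the 10 genes was 0.17 in KO microglia and -0.19 between the WT groups, where the median over all genes tested was -0.01 and -0.0027. Over the 9 without Nt5e it was 0.13 in KO macrophages, 0.38 between the KO groups and 0.68 for the interaction, beside medians of 0.00072, -0.0043 and 0.0020 over all genes tested. These medians are taken over changes in both directions, which the plot of values by library shows gene by gene.

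**Figure D1:**
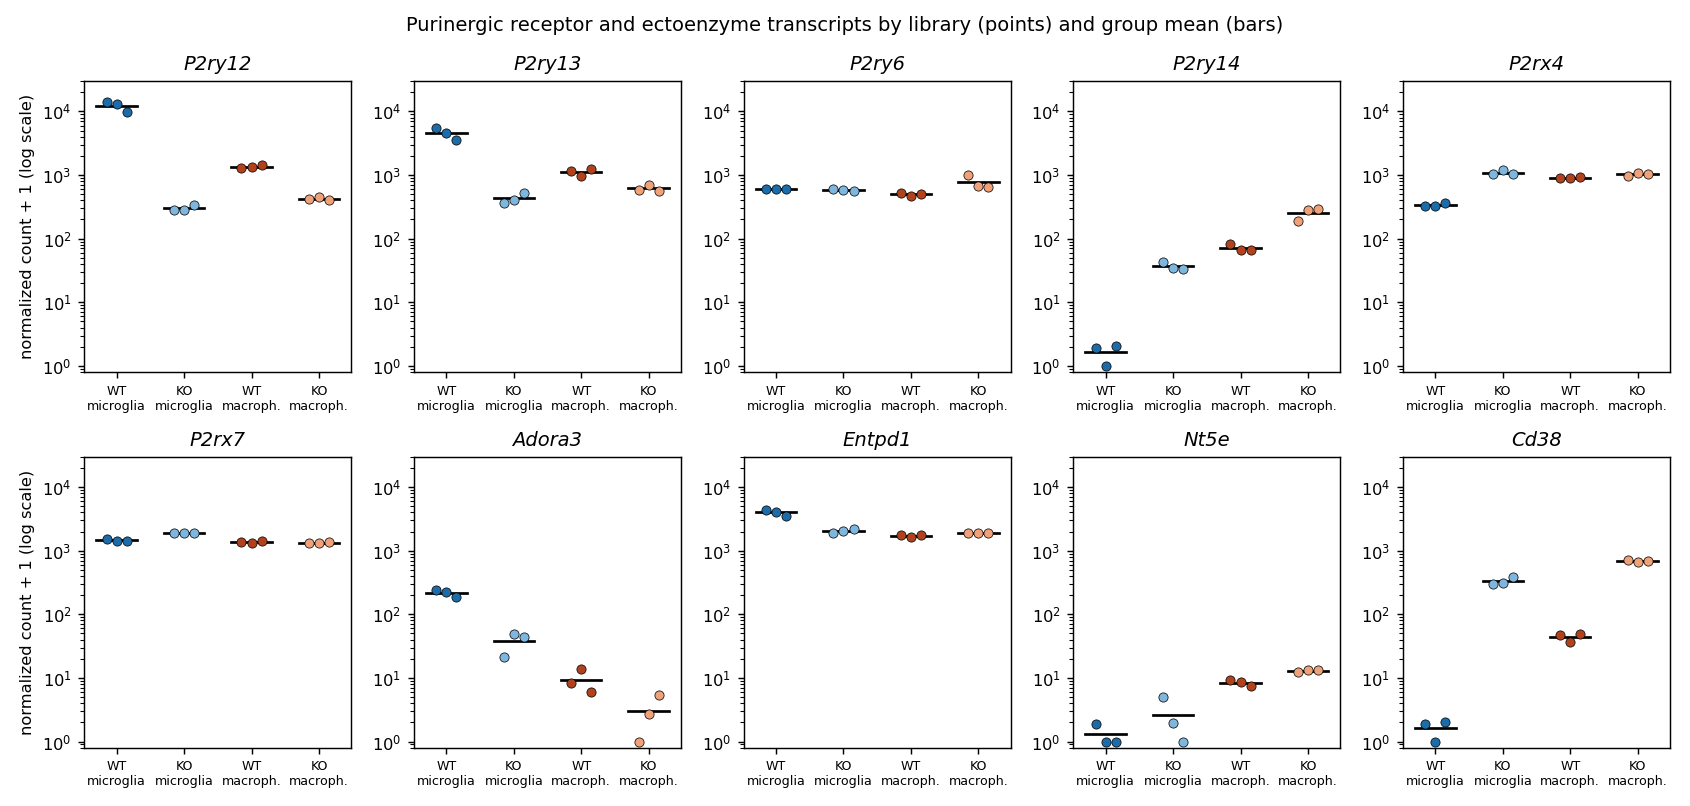
Normalized counts plus 1 (log axis) of the 10 genes in each of the 12 libraries (points), by group, with the group mean as a black bar. P2ry12, P2ry13, Adora3 and Entpd1 were highest in the 3 WT microglia libraries, while P2ry14 and Cd38 had no more than 1 read in any of them.

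In KO microglia the ADP receptors showed the steepest losses. P2ry12 (ENSMUSG00000036353, GRCm38 chromosome 3, 59216272 to 59262871, minus strand) encodes the Gi-coupled receptor that is also found on platelets. It was at 14162, 12852 and 9942 normalized counts in WT microglia and at 283, 278 and 332 in KO microglia. In the macrophages it was at 1279.9, 1327 and 1453 in WT and at 415, 450.2 and 405 in KO libraries. No library of 1 group reached into the range of another, in the order WT microglia, WT macrophages, KO macrophages, KO microglia. The mean fell 41.4-fold in KO microglia, from 12319 ± 2159.9 to 298 ± 29.8 (SD, n = 3 libraries), a log2 change of -5.36 ± 0.12 (SE, limma adjusted p = 2.04e-14). In the macrophages it fell 3.20-fold, from 1353 ± 89.8 to 423 ± 23.8, a log2 change of -1.67 ± 0.12 (limma adjusted p = 4.88e-08). The effects differed by 3.68 ± 0.16 on the log2 scale (limma adjusted p = 4.71e-10). WT macrophages held 9.10-fold less P2ry12 than WT microglia (log2 -3.17 ± 0.12, limma adjusted p = 1.31e-11). Among KO cells the order was the opposite, and KO macrophages held 1.42-fold more than KO microglia (log2 0.51 ± 0.12, limma adjusted p = 0.00882). That last call was lost with Ddx3y as a covariate (0.48, limma adjusted p = 0.0567). Without the libraries numbered in the 100s the difference was 0.36. A list of 7 platelet and megakaryocyte genes was also highest in WT microglia, at 472 to 621 in sum against 54.1 to 72.7 in KO microglia, 32.8 to 47.0 in WT and 5.03 to 14.4 in KO macrophages. Most of the WT microglia sum was Itgb3 (mean 486), and the platelet genes Ppbp and Gp6 were at 0 reads in all 3 of those libraries. The platelet gene Gp9 averaged 59.8 in WT and 0.982 in KO microglia, beside 0.274 in WT and 0 in KO macrophages. Treml1, also a platelet gene, averaged 16.0 and 2.77 in WT and KO microglia, beside 21.5 and 3.73 in WT and KO macrophages. The part of these genes' source cells in the P2ry12 values was not tested.

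P2ry13 (ENSMUSG00000036362, chromosome 3, 59207892 to 59210882, minus strand), the other ADP receptor, was at 5478, 4614 and 3525 in WT microglia and at 368, 408 and 519 in KO microglia. WT macrophages had values of 1147, 976 and 1240.3, and KO macrophages of 576, 705 and 563. The 4 groups came in the same order as for P2ry12, again without overlap between neighbours. The mean fell 10.5-fold in KO microglia, from 4539 ± 978 to 432 ± 78.3 (log2 -3.38 ± 0.16, limma adjusted p = 1.12e-10), and 1.82-fold in KO macrophages, from 1121 ± 134 to 615 ± 78.5 (log2 -0.87 ± 0.16, limma adjusted p = 0.00068). The interaction was 2.52 ± 0.22 (limma adjusted p = 8.93e-07). WT macrophages held 4.05-fold less than WT microglia (log2 -2.00 ± 0.16, limma adjusted p = 8.54e-08). The 1.42-fold higher mean of KO macrophages over KO microglia was barely called (log2 0.52, limma adjusted p = 0.0494), and 15 of 23 alternative settings lost that call, among them leaving out WT microglia replicate 2, KO microglia replicate 1 or 2, any WT macrophage library, or KO macrophages replicate 2 or 3 (limma adjusted p from 0.0528 to 0.216, log2 values from 0.41 to 0.58).

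The 2 ADP receptors did not fall in step. Per kilobase of exon, which allows levels of different genes to be set side by side, the ratio of P2ry12 to P2ry13 was 2.57, 2.77 and 2.80 in the WT microglia libraries but 0.763, 0.677 and 0.635 in the KO microglia libraries. It was 1.21 ± 0.127 in WT macrophages and 0.688 ± 0.0463 in KO macrophages. P2ry12 was thus the more abundant transcript of the pair in every WT library and the less abundant in every KO library.

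Both genes lie with P2ry14 in 1 cluster on the minus strand of chromosome 3, inside the span of Med12l (59005825 to 59318682, plus strand), which encodes a Mediator subunit. P2ry13 and P2ry12 are 5.39 kb apart, and P2ry14 (ENSMUSG00000036381, 59113855 to 59153618) lies 54.3 kb beyond P2ry13. The start regions of the 3 genes are shown because neighbours in this cluster changed in opposite directions. Each sequence runs 5′ to 3′ on the minus strand from 250 bases before to 50 bases after the start in RefSeq (GRCm38.p6), and capitals mark the letters CAGAC, a core element bound by SMAD proteins downstream of TGF-beta, and AGGAAGT, the core of PU.1 sites, on either strand. The regions are chr3:59262936-59263235 for P2ry12, chr3:59210833-59211132 for P2ry13 and chr3:59153443-59153742 for the most upstream P2ry14 start.
P2ry12: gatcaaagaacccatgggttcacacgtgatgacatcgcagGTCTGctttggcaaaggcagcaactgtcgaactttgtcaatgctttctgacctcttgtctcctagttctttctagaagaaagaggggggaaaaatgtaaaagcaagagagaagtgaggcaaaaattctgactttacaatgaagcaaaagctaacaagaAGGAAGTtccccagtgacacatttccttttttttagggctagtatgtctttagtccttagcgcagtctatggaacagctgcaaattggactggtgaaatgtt
P2ry13: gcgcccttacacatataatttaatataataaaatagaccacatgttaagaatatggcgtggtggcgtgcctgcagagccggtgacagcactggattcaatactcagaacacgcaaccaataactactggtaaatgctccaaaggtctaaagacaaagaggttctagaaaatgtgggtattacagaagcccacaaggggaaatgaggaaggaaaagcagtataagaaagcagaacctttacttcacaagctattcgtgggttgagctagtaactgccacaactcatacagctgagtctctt
P2ry14: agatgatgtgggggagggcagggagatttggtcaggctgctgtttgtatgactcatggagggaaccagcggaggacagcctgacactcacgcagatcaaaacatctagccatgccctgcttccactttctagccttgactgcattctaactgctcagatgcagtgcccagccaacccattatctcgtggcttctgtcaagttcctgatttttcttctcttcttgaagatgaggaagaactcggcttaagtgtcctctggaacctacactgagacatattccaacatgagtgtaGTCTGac
The P2ry12 window held CAGAC on the opposite strand at bases 41 to 45 and AGGAAGT at bases 199 to 205. The P2ry13 window held neither, and the P2ry14 window held CAGAC on the opposite strand at bases 294 to 298, past the start, and the AP-1 letters TGANTCA at bases 49 to 55. Of 32851 RefSeq windows of 300 bases, 49.6% held CAGAC, 9.35% AGGAAGT, 7.81% TGANTCA and 3.44% a pair of GAAA with 2 bases between, searched for interferon regulatory factors, each on either strand. None of the 3 windows printed held the last of these.

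P2ry14, the receptor for UDP-glucose, moved against its neighbours. It had 2 reads in all over the 3 WT microglia libraries (0.881, 0 and 1.04 normalized counts) and stood at 41.2, 33.4 and 32.2 in KO microglia. WT macrophages had 81.0, 64.8 and 65.8 and KO macrophages 189, 283 and 292. The groups did not overlap, in the order KO macrophages, WT macrophages, KO microglia, WT microglia. In KO microglia P2ry14 rose by log2 4.54 ± 0.29 (limma adjusted p = 4.54e-09). From reads the ratio was 50.9, with a 95% counting interval of 13.8 to 425, since 2 reads stand in the lower group. In KO macrophages it rose 3.61-fold, from 70.6 ± 9.07 to 254 ± 56.9 (log2 1.82 ± 0.29, limma adjusted p = 0.000232). WT macrophages exceeded WT microglia by a read ratio of 102 (interval 27.9 to 848, log2 5.51 ± 0.29, limma adjusted p = 1.09e-09), and KO macrophages exceeded KO microglia 7.14-fold (log2 2.78, limma adjusted p = 1.10e-05). The interaction was -2.72 ± 0.41 (limma adjusted p = 0.000173), and its size depends on the pseudocount. With 10 it was -0.40 (limma adjusted p = 0.277), the 1 alternative of 22 in which the call was lost.

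Genes around the cluster were then read. Med12l fell in KO microglia from 518 ± 44.9 to 42.9 ± 16.7 (log2 -3.62 ± 0.22, limma adjusted p = 2.12e-09) and in KO macrophages from 104 ± 18.3 to 51.1 ± 6.79 (log2 -0.997, limma adjusted p = 0.00276), the direction of P2ry12 and P2ry13 in both. Only 9 exon bases of P2ry12 (0.353%) coincide with exons of Med12l, but the span of Med12l encloses all 3 receptor genes, and whether strand was used in counting is not given in the sources used here. How far reads of 1 gene were counted for another was not tested. Igsf10, which overlaps the far end of Med12l, fell from 35.1 ± 3.16 to 8.19 ± 2.05 in KO microglia (log2 -2.00, limma adjusted p = 0.000687). Its change was -1.79 without the libraries numbered in the 100s. Gpr171, beyond P2ry14, stayed between 0 and 15.5 in all 12 libraries. The plot of the cluster places these genes and their values side by side.

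**Figure D2:**
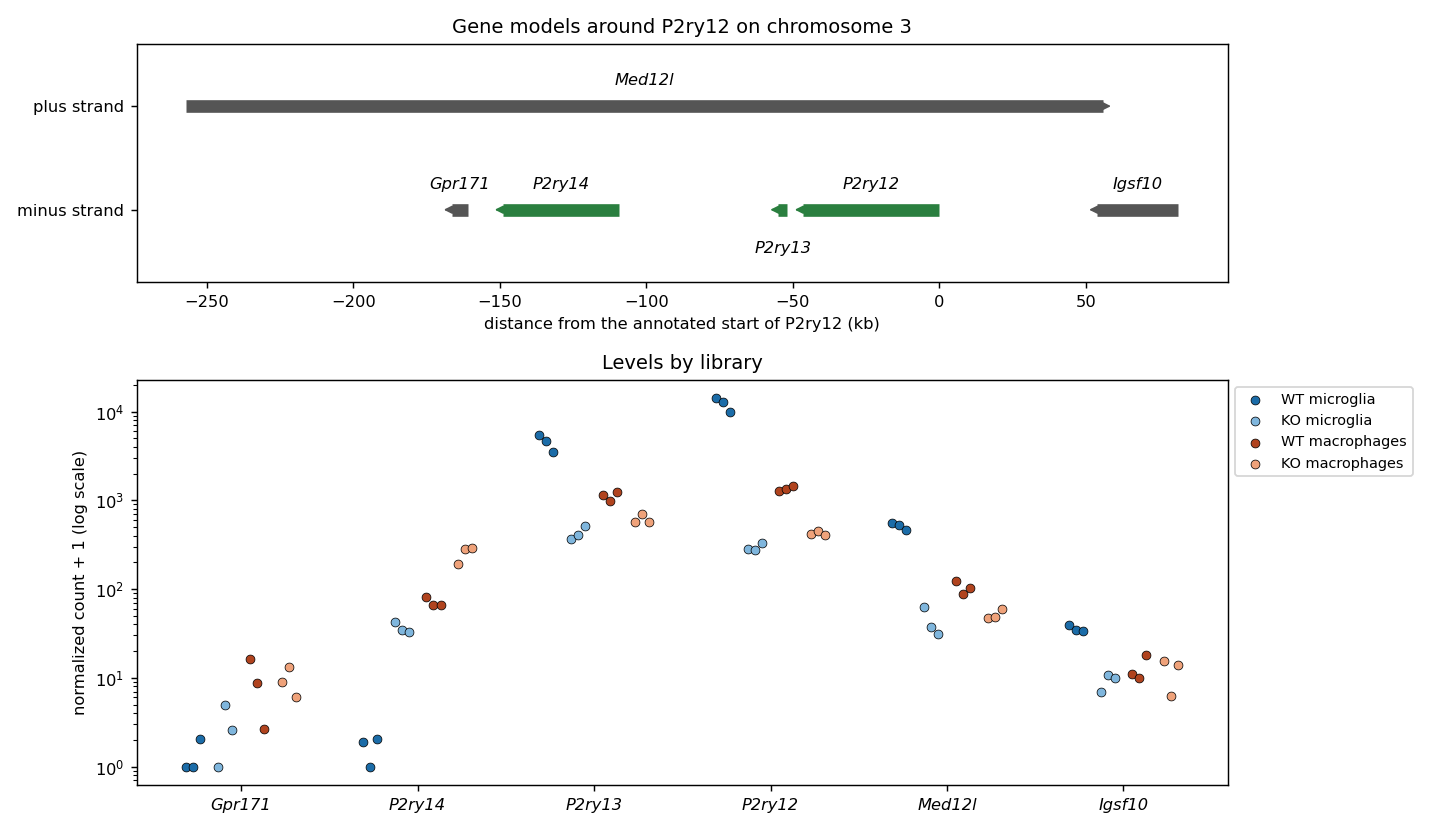
Top, gene models around P2ry12 by distance in kb from its annotated start, plus and minus strand on separate rows, with the 3 receptor genes in green. Bottom, normalized counts plus 1 (log axis) of the same genes in each of the 12 libraries. P2ry13, P2ry12 and Med12l were highest in the 3 WT microglia libraries, while P2ry14 was lowest there.

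P2ry6 (ENSMUSG00000048779, chromosome 7, 100937630 to 100974649, minus strand) encodes the UDP receptor, which is Gq-coupled and known for promoting phagocytosis by microglia. WT microglia had 612, 602 and 601 and KO microglia 608, 585 and 555, ranges that overlap. It was at 512, 466 and 501 in WT macrophages and at 999, 669 and 657 in KO macrophages, where replicate 1 stood above the other libraries. In microglia the log2 difference of KO from WT was -0.06 with a 95% interval of -0.32 to 0.21 (limma adjusted p = 0.767). In macrophages it rose 1.57-fold, from 493 ± 24.02 to 775 ± 194 (log2 0.62 ± 0.13, limma adjusted p = 0.00151), and by 0.43 without replicate 1 of the KO macrophages, still called. The interaction was 0.68 ± 0.18 (limma adjusted p = 0.0109), and 0.59 with Ddx3y as a covariate (limma adjusted p = 0.0552). The WT groups differed by log2 -0.30 (macrophages minus microglia, limma adjusted p = 0.0756) and the KO groups by 0.38 (limma adjusted p = 0.0678). The first of these was called without replicate 1 of the KO macrophages (limma adjusted p = 0.00207), and the second without replicate 2 or 3 of that group (limma adjusted p = 0.0388 and 0.0263).

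The ATP-gated channels P2rx7 (ENSMUSG00000029468, chromosome 5, 122643911 to 122691432) and P2rx4 (ENSMUSG00000029470, 122707544 to 122729738) lie 16.1 kb apart on the plus strand. P2X4 responds to low ATP and cycles through lysosomes. P2rx4 was at 323, 329.8 and 360.2 in WT microglia, below every other library. KO microglia had 1032, 1177 and 1022, WT macrophages 911, 896 and 914, and KO macrophages 978, 1069.8 and 1038. The KO groups overlapped each other, and WT macrophages lay just under both. P2rx4 rose 3.19-fold in KO microglia, from 338 ± 20.0 to 1077 ± 86.8 (log2 1.67 ± 0.08, limma adjusted p = 1.35e-10). In KO macrophages the change was 0.18 ± 0.08 (interval 0.01 to 0.35, limma adjusted p = 0.0967), and 0.22 without the libraries numbered in the 100s. The interaction was -1.49 ± 0.11 (limma adjusted p = 1.65e-07). WT macrophages held 2.69-fold more than WT microglia (log2 1.43 ± 0.08, limma adjusted p = 1.82e-09), while the KO groups differed by -0.06 (interval -0.23 to 0.10, limma adjusted p = 0.686).

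P2X7 needs high ATP and is known for triggering the NLRP3 inflammasome. P2rx7 varied least of the 10 across groups, with a highest group mean 1.42 times the lowest. WT microglia had 1516, 1430.05 and 1419, KO microglia 1896, 1879.9 and 1928, WT macrophages 1369, 1342 and 1405, and KO macrophages 1338, 1314 and 1351. KO microglia stood above all other libraries, and the 2 macrophage groups overlapped. It rose 1.31-fold in KO microglia, from 1455 ± 53.0 to 1901 ± 24.2 (log2 0.39 ± 0.06, limma adjusted p = 0.000155). In the macrophages the difference was -0.04 with an interval of -0.18 to 0.10 (limma adjusted p = 0.675), and the interaction was -0.43 ± 0.09 (limma adjusted p = 0.00284). KO macrophages held less than KO microglia (log2 -0.51 ± 0.06, limma adjusted p = 6.41e-05), and the WT groups differed by -0.08 (limma adjusted p = 0.328). Per kilobase, the ratio of P2rx4 to P2rx7 went from 0.198 ± 0.0175 to 0.482 ± 0.044 between WT and KO microglia, and stood at 0.562 ± 0.00777 and 0.655 ± 0.0354 in the WT and KO macrophages.

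Adora3 (ENSMUSG00000000562, chromosome 3, 105870858 to 105908926, plus strand) encodes a Gi-coupled adenosine receptor, the last step of the chain from ATP. WT microglia had 238, 225 and 183 and KO microglia 20.6, 47.2 and 43.4. The macrophages were near the detection limit, at 7.28, 12.7 and 4.94 in WT and at 0, 1.75 and 4.31 in KO libraries. The groups did not overlap, in the order WT microglia, KO microglia, WT macrophages, KO macrophages. It fell 5.81-fold in KO microglia, from 216 ± 28.7 to 37.1 ± 14.4 (log2 -2.58 ± 0.52, limma adjusted p = 0.000778). The change was -2.05 without the libraries numbered in the 100s. In KO macrophages it fell from 24 reads over the group to 8 (log2 -1.84 ± 0.52, limma adjusted p = 0.0134), and 5 of 23 alternatives lost this call, among them the one without replicate 2 of the WT macrophages (-1.52, limma adjusted p = 0.0654). The interaction was 0.74 ± 0.73 (interval -0.82 to 2.30, limma adjusted p = 0.496). WT macrophages held 25.9-fold less than WT microglia (log2 -4.62 ± 0.52, limma adjusted p = 3.87e-06), and KO macrophages 18.4-fold less than KO microglia (log2 -3.88 ± 0.52, limma adjusted p = 0.000107). Tmigd3 shares 779 of the exon bases of Adora3 (20.9%) on the same strand, and its group means were 1.52 or less. The mast cell marker list, relevant because mast cells carry this receptor, summed to at most 0.881 in WT microglia.

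The make-up of the receptor transcripts differed between the groups. Summed per kilobase over the 7 receptors, the level was 7193 ± 1246 in WT and 974.5 ± 35.1 in KO microglia, beside 1514 ± 89.3 in WT and 1071 ± 54.6 in KO macrophages. P2ry12 made up 67.2 ± 0.624% of this sum in WT and 11.98 ± 0.838% in KO microglia, beside 35.1 ± 1.52% in WT and 15.5 ± 0.873% in KO macrophages. P2rx7, whose own level moved little, went from 3.45 ± 0.541% in WT microglia to 32.7 ± 0.941% in KO microglia, where it was the largest share. P2ry6 went from 2.97 to 20.8% and P2rx4 from 0.687 to 15.7% in the same comparison. In WT and KO macrophages P2ry6 stood at 11.3 ± 0.51% and 24.9 ± 5.25%, and P2ry13 at 29.2 and 22.7%. Shares sum to a whole, so the fall of P2ry12 and P2ry13 raises the share of every other receptor, and they were not tested.

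**Figure D3:**
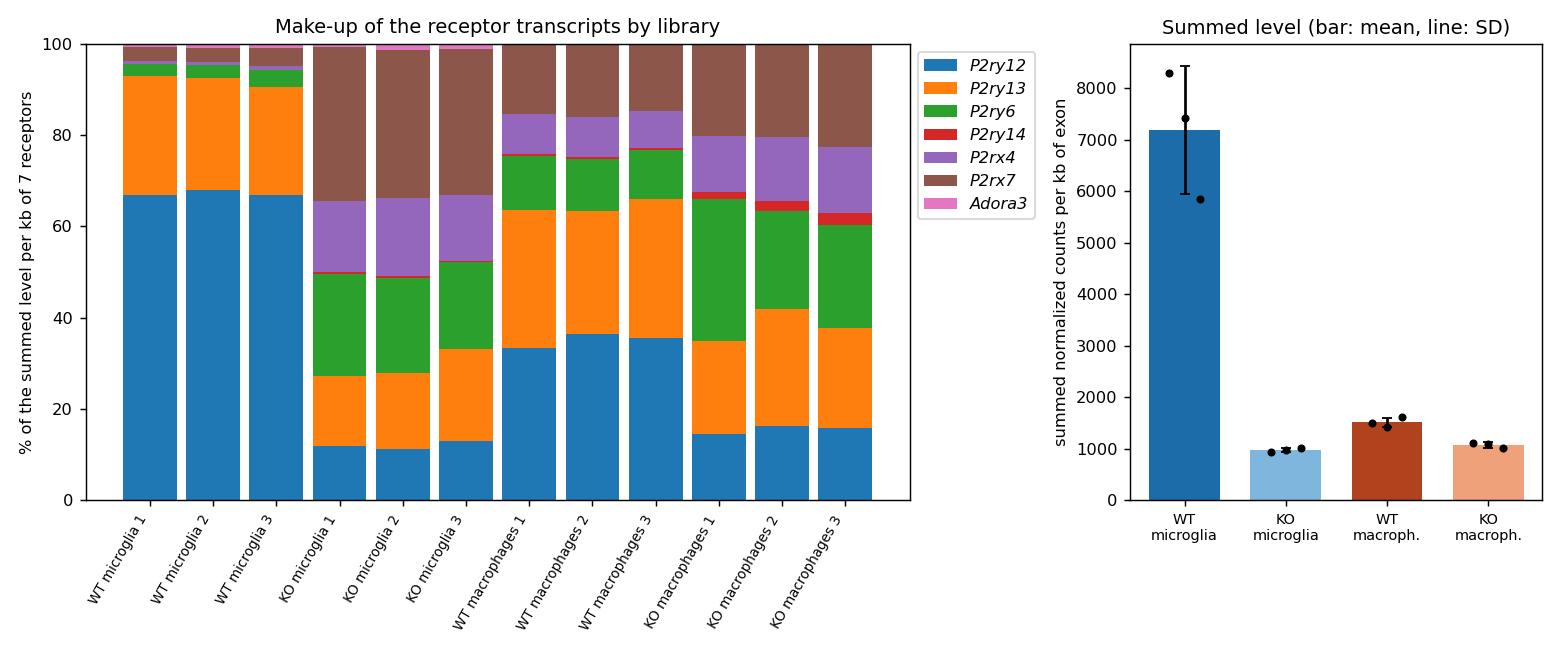
Left, share of each receptor gene in the summed level per kb of exon of 7 receptors, in each library. Right, that summed level per library (points) with the group mean (bar) and SD (line). P2ry12 and P2ry13 together filled most of each WT microglia library, and the summed level was 7193 in WT microglia against 974.5 in KO microglia.

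Among the ectoenzymes, Entpd1 (ENSMUSG00000048120, chromosome 19, 40612366 to 40741602, plus strand), which starts the breakdown of ATP, had 4349.9, 4112 and 3520.03 normalized counts in the WT microglia libraries, and in those of KO microglia 1910.1, 2037 and 2232. WT macrophages had 1791, 1636 and 1765 and KO macrophages 1881, 1922 and 1870.1. WT microglia stood above all other libraries, KO microglia and KO macrophages overlapped, and WT macrophages lay below both. It fell 1.94-fold in KO microglia, from 3994 ± 427 to 2059.8 ± 162 (log2 -0.95 ± 0.09, limma adjusted p = 3.12e-07). In KO macrophages the difference was 0.13 (interval -0.06 to 0.32, limma adjusted p = 0.287), although the libraries did not overlap, as for 45.2% of all genes tested. The interaction was 1.08 ± 0.12 (limma adjusted p = 1.28e-05). WT macrophages held 2.31-fold less than WT microglia (log2 -1.20 ± 0.09, limma adjusted p = 3.97e-08), and the KO groups differed by -0.12 (limma adjusted p = 0.46). CD39 is also found on vessel walls: a list of 5 vessel genes summed to 134 to 249 in WT microglia, 43.2 to 52.1 in KO microglia, 58.3 to 67.5 in WT and 91.2 to 153 in KO macrophages. Pecam1 made up most of that sum in microglia, at 178.5 in WT and 27.8 in KO, and was at 13.3 and 103 in WT and KO macrophages. In WT and KO microglia the other vessel genes were lower, with means of 10.8 and 9.11 for Cdh5, 9.40 and 6.402 for Flt1, 1.23 and 1.19 for Pdgfrb and 0.429 and 2.83 for Rgs5. The part of vessel cells in the fall of Entpd1 was not tested.

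Nt5e (ENSMUSG00000032420, chromosome 9, 88327197 to 88372092, plus strand), which completes the path to adenosine, was close to the limit of detection in microglia. WT microglia had 0.881, 0 and 0, or 1 read over the group, and KO microglia 3.93, 0.983 and 0, or 5 reads. WT macrophages had 8.19, 7.63 and 6.58 and KO macrophages 11.2, 12.2 and 12.2. Every macrophage library exceeded every microglia library. KO and WT microglia could not be told apart at this depth (read ratio 4.39, 95% counting interval 0.491 to 207, limma adjusted p = 0.306), and WT macrophages exceeded WT microglia (log2 2.77 ± 0.58, limma adjusted p = 0.00143, read ratio 21.3 with interval 3.47 to 879). KO macrophages stood log2 0.61 above WT macrophages and 2.59 above KO microglia. These last 2 differences are given with no test, since the values in KO macrophages brought the gene through the filter. A list of 7 markers of T and NK cells, which can also carry CD73, was highest in KO macrophages too, at 10.1 to 14.4 in sum, against 0 to 2.73 in WT macrophages, 5.63 to 6.88 in KO microglia and 0.881 to 3.87 in WT microglia, and its part in the Nt5e values was not tested. Per kilobase, Entpd1 exceeded Nt5e 360.4-fold in WT and 246-fold in KO macrophages.

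Cd38 (ENSMUSG00000029084, chromosome 5, 43868553 to 43912375, plus strand) showed the largest rise of the 10. It had 2 reads over the 3 WT microglia libraries (0.881, 0 and 1.04 normalized counts) and was at 299.5, 307 and 387 in KO microglia. WT macrophages had 46.4, 35.6 and 48.6 and KO macrophages 703, 668 and 698. The groups did not overlap, in the order KO macrophages, KO microglia, WT macrophages, WT microglia. In KO microglia it rose by log2 7.72 ± 0.24 (limma adjusted p = 1.08e-12), a read ratio of 482 with a 95% counting interval of 133.1 to 3986. In KO macrophages it rose 15.8-fold, from 43.5 ± 6.96 to 689 ± 19.1 (log2 3.97 ± 0.24, limma adjusted p = 1.43e-08). The interaction was -3.75 ± 0.34 (limma adjusted p = 1.16e-06). WT macrophages exceeded WT microglia by a read ratio of 64.0 (interval 17.4 to 534, log2 4.82, limma adjusted p = 5.78e-10). KO macrophages exceeded KO microglia 2.08-fold (log2 1.06 ± 0.24, limma adjusted p = 0.00896). That call was lost without replicate 1 of the KO microglia (0.997, limma adjusted p = 0.0515) and with a pseudocount of 0.5 (1.07, limma adjusted p = 0.0534). Without the libraries numbered in the 100s the difference was 0.82. CD38 is also found on B and T cells: a list of 6 B cell markers summed to 40.4 to 50.2 in WT microglia, 54.1 to 62.7 in KO microglia, 9.88 to 30.0 in WT and 38.8 to 68.1 in KO macrophages.

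The start region of Cd38, the gene with the largest rise, is shown on the plus strand (RefSeq, GRCm38.p6, chr5:43868559-43868858), 5′ to 3′ with the same letters in capitals.
Cd38: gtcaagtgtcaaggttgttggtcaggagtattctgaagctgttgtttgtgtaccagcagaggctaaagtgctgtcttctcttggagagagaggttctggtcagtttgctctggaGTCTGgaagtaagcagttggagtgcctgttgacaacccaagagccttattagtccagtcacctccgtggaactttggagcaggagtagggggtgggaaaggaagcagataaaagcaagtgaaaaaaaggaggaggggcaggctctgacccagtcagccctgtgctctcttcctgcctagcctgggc
It held CAGAC on the opposite strand at bases 115 to 119 and none of the other letters searched. Of the 10 genes, 9 had start regions in the RefSeq table. Bst1, a related NAD-consuming enzyme 24.6 kb from Cd38, rose as well in KO microglia, from 0.774 ± 0.683 to 12.3 ± 2.58 (log2 2.98 ± 0.55, limma adjusted p = 0.000433), and was at 6.06 in WT and 14.3 in KO macrophages (limma adjusted p = 0.0918). Within the ectoenzymes, Cd38 made up 0.0237% of the summed level per kilobase in WT and 18.7 ± 1.13% in KO microglia, beside 3.46 ± 0.397% in WT and 34.2 ± 0.943% in KO macrophages, and nearly all of the rest was Entpd1.

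**Figure D4:**
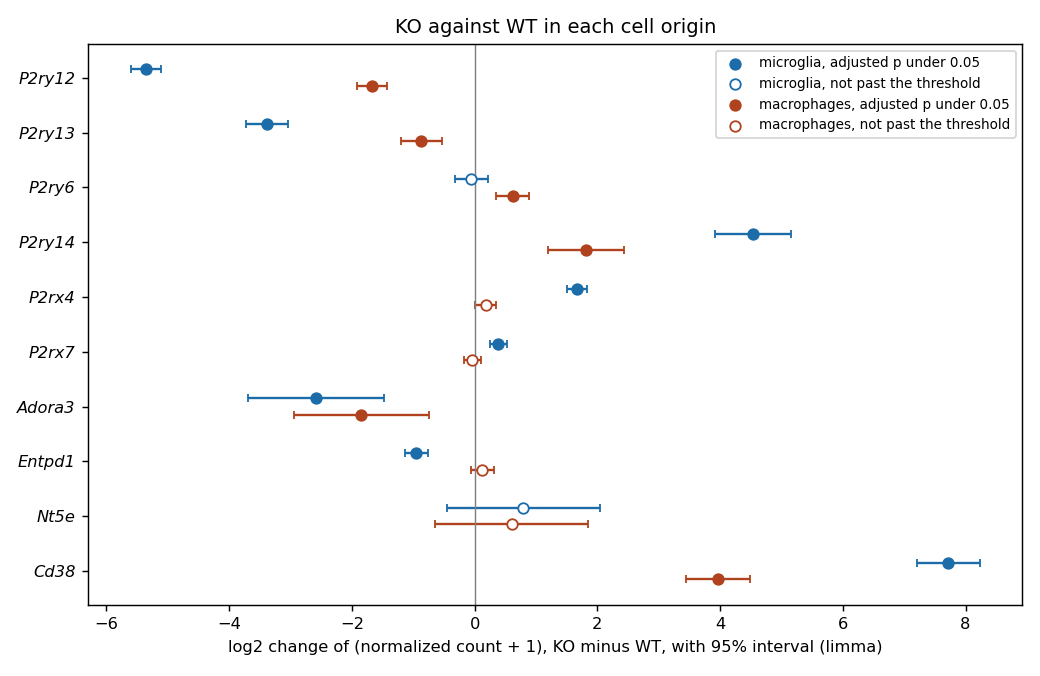
Log2 change of normalized count plus 1, KO minus WT, for the 10 genes in microglia (blue) and macrophages (red), with the 95% interval from limma. Filled points passed an adjusted p of 0.05. P2ry12, P2ry13 and Adora3 were lower and P2ry14 and Cd38 higher in both cell origins, while Entpd1, P2rx4 and P2rx7 were called in microglia and not in macrophages.

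The plot of KO effects sets both cell origins side by side. Of the 8 genes whose effects differed by the interaction test, P2ry12, P2ry13, P2ry14 and Cd38 were called in the same direction in both origins, with the larger change in microglia. P2rx4, P2rx7 and Entpd1 were called in microglia alone, and P2ry6 in macrophages alone. Libraries of KO and WT did not overlap for 8 genes in microglia (55.2% of all genes tested) and for 8 of the 9 without Nt5e in macrophages (45.2%). There was no overlap for any of the 10 between the WT groups (53.9%) and for 7 of the 9 between the KO groups (27.1%). The log2 scale with a pseudocount of 1 understates changes of genes with few reads, which touches P2ry14, Cd38, Nt5e and Adora3.

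Genes whose levels ran most like each receptor or enzyme were found by Pearson's r of log2 values over the 12 libraries, which share groups, so r reflects mostly the 4 group means. Nearest to P2ry12 were Chn2 (r = 0.998) and Gpr34 (0.996). Nearest to P2ry13 were P2ry12 itself (0.994), Gpr34 (0.990) and Lsm6 (0.989). P2ry6 ran with Banf1 (0.964) and Dnajc8 (0.933), and P2ry14 with Ralgds (0.991) and Plbd1 (0.990). The channel gene P2rx4 ran with St3gal1 and Ifi207 (both 0.994) and P2rx7 with Timd4 (0.971) and Cep112 (0.941). Adora3 ran with Mgll (0.991), which encodes monoglyceride lipase, and Ints6l (0.974). For the enzymes the nearest were Jam3 and Fam102b (both 0.991) for Entpd1, Tjp3 (0.974) and Akr1c13 (0.959) for Nt5e, and Vcam1 and Tank (both 0.996) for Cd38. Timd4 had means of 0.588, 57.7, 0.303 and 0.239 in WT and KO microglia and WT and KO macrophages, against 1455, 1901, 1372 and 1334 for P2rx7.

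Other genes of purinergic signalling, together with related receptors and enzymes, were counted in 6 lists, 97 tested genes in all. Their counts stand beside 42.5% of all genes tested that were called in microglia (21.9% higher, 20.6% lower) and 31.4% in macrophages (16% and 15.4%), and a count near those shares is not a result about a list. Of 17 other nucleotide, adenosine and related receptors in the table, 5 passed the filter. P2ry1, P2ry2, Adora2a and Adora2b were among those that did not, each with group means of 4.13 or less. The 5 were P2rx1, P2ry10b, Adora1, Gpr34 and Lpar6, the last 2 being receptors for lipids. In KO microglia 4 of the 5 fell and none rose, with a median log2 change of -2.29. Count and median include P2rx1, which averaged 32.2 in WT microglia and 9.38 or less in each other group. In KO macrophages 3 fell, with a median of -0.97. Gpr34, the lysophosphatidylserine receptor related to P2Y12, fell from 4763 ± 1053 to 531 ± 41.5 in KO microglia (log2 -3.14, limma adjusted p = 2.67e-11) and from 1244 ± 82.2 to 561 in KO macrophages (log2 -1.15, limma adjusted p = 8.03e-06). Lpar6, a lysophosphatidic acid receptor, fell by 1.48 and by 0.97 on the log2 scale. Gpr34 also stands in the microglial marker list.

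Of 11 other enzymes that act on nucleotides, mostly ectoenzymes, 6 rose and 1 fell in KO microglia (median 0.63) and 1 rose in KO macrophages (median 0.47). The pyrophosphatases Enpp4 (log2 1.72, 80.9 to 269) and Enpp1 (1.31, 53.2 to 132.996) rose in KO microglia (limma adjusted p = 1.04e-07 and 1.06e-05). Enpp1 was the gene called in KO macrophages (0.47, limma adjusted p = 0.0443). Leaving out WT microglia replicate 1, KO microglia replicate 2 or 3, WT macrophages replicate 1 or 2 or any KO macrophage library ended that call (0.40 to 0.51, limma adjusted p from 0.0504 to 0.147). The list's count in KO macrophages ranged from 0 to 2 over single libraries left out: it was 2 without replicate 3 of the WT or of the KO macrophages, and 0 without replicate 1 of WT microglia, 2 or 3 of KO microglia, 1 of WT macrophages or 1 or 2 of KO macrophages. Ak1, the adenylate kinase, averaged 169 in WT microglia and 10.0 in KO microglia (log2 -4.44), beside 4.14 in WT and 4.45 in KO macrophages. Only its values in WT microglia brought it through the filter, so this difference is given with no test. Ak1 is the 1 fall counted above. Dpp4, also among the 11, averaged 13.2 in KO macrophages and 9.68 or less in each other group, and the counts were not repeated without it.

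Of 17 genes that carry or use nucleosides, 12 rose and 1 fell in KO microglia (median 0.76), and 7 rose and 1 fell in KO macrophages (median 0.32). Xdh, xanthine dehydrogenase, which turns purines into urate, rose from 9.71 to 206 in KO microglia (log2 4.70 ± 0.43, limma adjusted p = 2.87e-07) and from 222 to 669 in KO macrophages (log2 1.598 ± 0.43, limma adjusted p = 0.0109). Deoxycytidine kinase, Dck, rose by 1.82 in KO microglia. The concentrative nucleoside transporter Slc28a2 rose by 3.23 in KO macrophages, from 17.2 to 170.3. The lysosomal nucleoside transporter Slc29a3 fell in both, by 1.02 in microglia and by 0.50 in macrophages.

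Of 9 genes linked to nucleotide release, 2 rose and 1 fell in KO microglia (median -0.09) and 3 rose and 1 fell in KO macrophages (median 0.13), close to the shares of all genes called. The volume-regulated channel subunit Lrrc8d fell by 0.90 and by 0.82, and its relative Lrrc8c rose by 1.23 in KO macrophages. Panx1, the pannexin channel gene, averaged 25.6, 17.4, 15.7 and 34.5 in WT and KO microglia and WT and KO macrophages.

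Of 39 signalling partners of the receptors, 11 rose and 17 fell in KO microglia (median -0.03) and 13 rose and 9 fell in KO macrophages (median -0.10). Gnb4 and Plcb1, both among the 39, averaged 20.0 and 21.1 in KO macrophages and 7.27 or less in each other group. Values in KO macrophages may thus have brought both through the filter, and the counts were not repeated without them. Gna15, a Gq-family subunit, fell from 1235 to 86.2 in microglia (log2 -3.84 ± 0.13, limma adjusted p = 2.86e-12) and from 665 to 195 in macrophages (log2 -1.77 ± 0.13, limma adjusted p = 9.91e-08). Pik3r5, which regulates a kinase driven by Gi-coupled receptors, fell by 1.94 in KO microglia. Il1b, the cytokine gene whose product the P2X7 pathway releases, rose from 21.2 to 328 in KO microglia (log2 4.15 ± 0.37, limma adjusted p = 2.33e-07). Ninj1, which ruptures membranes in dying cells, rose by 1.11 and by 0.84, and Pycard, the inflammasome adaptor, by 0.66 in KO macrophages. Rgs1 fell by 0.71 there. In microglia Pycard went the other way, with means of 233 ± 9.99 in WT and 120 ± 6.11 in KO.

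Of 16 genes of NAD metabolism, on which CD38 acts, 8 rose and 3 fell in KO microglia (median 0.26), and 2 rose and 3 fell in KO macrophages (median 0.09). Sarm1, among the 16, averaged 19.7 in WT microglia and 8.84 or less in each other group. Values in WT microglia may thus have brought it through the filter, and the counts were not repeated without it. Nampt, which makes the precursor of NAD, rose from 152 to 320 (log2 1.08, limma adjusted p = 2.99e-06) and Parp14 from 779 to 2602 (log2 1.74, limma adjusted p = 9.57e-10) in KO microglia. Parp14 was also higher in KO macrophages (0.35, limma adjusted p = 0.0136), a call lost without replicate 2 of either macrophage group (limma adjusted p = 0.0682 and 0.0502). Kynu, of the kynurenine path to NAD, fell from 111 to 20.6 in KO macrophages (log2 -2.39 ± 0.51, limma adjusted p = 0.0023). Parp1 fell by 0.41 in microglia and by 0.25 in macrophages, the second call being lost without replicate 1 or 3 of WT or 2 of KO macrophages (-0.27 to -0.19, limma adjusted p from 0.0527 to 0.121). Without replicate 2 of KO macrophages the list held 3 calls there instead of 5.

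**Figure D5:**
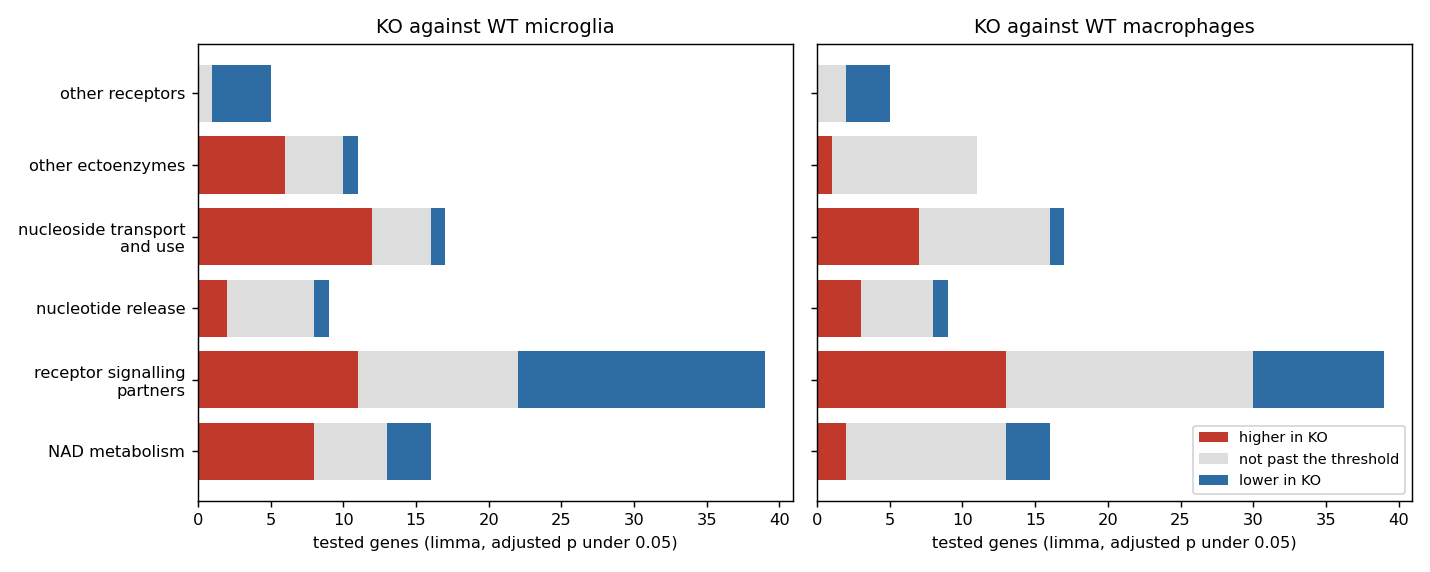
Number of tested genes in each of 6 lists of purinergic signalling and related genes (bar length), split into those higher in KO, those lower in KO and those not past an adjusted p of 0.05 (limma), in microglia (left) and macrophages (right). The 5 other receptors, among them the lipid receptors Gpr34 and Lpar6, held 4 falls in microglia and 3 in macrophages. The list of nucleoside transport and use held 12 and 7 rises.

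Between the WT groups, 39.4% of all genes tested were called, 19.2% higher in the macrophages and 20.2% lower, and no list was compared with those shares by a test. Other receptors held 1 higher and 3 lower genes in the macrophages, other enzymes 4 and 3, nucleoside genes 9 and 3, release genes 3 and 1, signalling partners 12 and 14, and NAD genes 9 and 0. Medians were -1.20, 0.32, 0.84, 0.06, -0.12 and 0.47 on the log2 scale. Gpr34 was lower in WT macrophages (-1.91) and Lpar6 higher (0.65). Xdh (4.79), Il1b (4.28), Kynu (3.43), Kcnn4 (2.87), Enpp4 (1.37), Nampt (1.22), Enpp1 (1.16) and Nt5c (0.97) were higher. Pycard (-1.58), Lrrc8a (-1.32), Rgs10 (-1.15), Ampd3 (-0.61) and Slc29a1 (-0.48) were lower. All of these were called with a limma adjusted p of 0.00526 or less. Ak1 stood at -5.21, given with no test because only its values in WT microglia brought it through the filter. It is among the 3 lower enzymes counted above. Ank, a gene linked to ATP release, was 0.57 higher (limma adjusted p = 0.0348), a call lost without replicate 3 of WT microglia or 1 or 2 of WT macrophages (0.27 to 0.55, limma adjusted p from 0.0918 to 0.158). Without replicate 3 of WT microglia or 1 of WT macrophages the release genes held 2 calls in place of 4.

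The other listed neighbours within 100 kb of a gene studied here, which are not all genes in that range, moved less evenly. Near Entpd1, Aldh18a1 fell from 111 to 24.9 in KO microglia (log2 -2.13 ± 0.23, limma adjusted p = 1.76e-06) and was at 53.9 and 48.9 in WT and KO macrophages, where Entpd1 was not called either. Near P2ry6, Relt, a receptor of the TNF family, rose in both, from 27.4 to 72.5 (log2 1.42) and from 39.9 to 81.4 (log2 1.01). P2ry2, the neighbouring receptor gene, was at group means of 3.53 or less. Near P2rx4, Anapc5 rose by 0.39 and Camkk2 fell by 0.31 in KO microglia (limma adjusted p = 0.000391 and 0.042), and Camkk2 lost its call without replicate 2 or 3 of WT microglia, 1 or 3 of KO microglia or 1 of WT macrophages (-0.34 to -0.21, limma adjusted p from 0.0555 to 0.19). Fbxl5, near Cd38, rose by 0.52 in KO microglia, and Syncrip, near Nt5e, fell by 0.41 and by 0.31. Syncrip lost its call in macrophages without replicate 1 or 3 of WT or 1 of KO macrophages (-0.32 to -0.20, limma adjusted p from 0.0548 to 0.099).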

How the data were processed

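RNA was measured in 12 libraries of sorted mouse cells, grouped by their titles into 4 groups of 3. The authors deposited log2 values per gene; every one of the 310848 values, taken as 2 to its power minus 1, was a whole multiple of 1 step per library (100%, tolerance 0.01 reads), so the unit is log2(gene count divided by a size factor + 1). Per the submitters' processing notes, the tools were STAR, CASAVA and bcl2fastq and the build GRCm38. What each did, its version, and which counter, annotation and strand setting were used is not given in the sources used here. Symbols and positions are those of GENCODE M21 on GRCm38 (25730 identifiers matched, 174 did not), and start regions from RefSeq (GRCm38.p6).

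limma 3.58.1 in R 4.3.3 (lmFit, eBayes with trend) was fitted to the deposited log2 values of the 12519 genes at 10 or more normalized counts in at least 3 libraries, with a mean per group (8 residual degrees of freedom) and 5 contrasts. p-values were Benjamini-Hochberg adjusted over all genes tested, with a threshold of 0.05. Ratios against groups with 1 to 3 reads carry exact 95% binomial intervals of the reads, which cover counting error alone, as reads were not tied to molecules. Tables and plots were made in Python 3.11.15 with pandas 2.3.3, matplotlib 3.10.9, scipy 1.17.1 and numpy 2.4.6. The pipeline was tested on simulated data.

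The 10 genes and the lists were chosen with earlier results of these data known. Beside the 10, the text names from each list up to 2 rises and 2 falls among called genes averaging at least 100 in the higher group, listed neighbours within 100 kb, and the 2 genes with the highest r. Panx1, P2ry1, P2ry2, Adora2a, Adora2b and Timd4's means were added after their values were seen. Leaving Nt5e out of counts and medians that involve KO macrophages was also decided after its values were seen, as was giving Ak1 with no test. Alternatives varied the filter, pseudocount (0.5 and 10), eBayes option, groups fitted, covariates and libraries.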

Additional observations from a re-analysis of the deposited data

Results flagged for a closer look

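The KO effect differed between macrophages and microglia by the interaction test for 8 of the 9 genes without Nt5e (limma adjusted p under 0.05), where 25.8% of all genes tested did. Written as the log2 change in macrophages minus that in microglia, the difference was 3.68 for P2ry12, 2.52 for P2ry13 and 1.08 for Entpd1, whose microglial falls were larger. It was -2.72 for P2ry14, -1.49 for P2rx4, -0.43 for P2rx7 and -3.75 for Cd38, whose microglial rises were larger. It was 0.68 for P2ry6, which rose in macrophages and was not called in microglia. P2ry14 and Cd38 started from 2 reads in WT microglia each, so the size of their differences depends on the pseudocount. With a pseudocount of 10 the difference was -0.40 for P2ry14 and no longer called (limma adjusted p = 0.277), and -1.28 for Cd38 and still called. With Ddx3y as a covariate the difference for P2ry6 lost its call (0.59, limma adjusted p = 0.0552).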

How the results depend on the processing

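Over 21 to 23 alternatives, 6 values of the 10 genes changed sign, all of them for differences that were not called. P2ry6 in KO against WT microglia was 0.014 with Ddx3y as a covariate. P2rx4 between the KO groups was 0.0013 without KO microglia replicate 2 (-0.10 without replicate 3, the other end of the range over single libraries left out) and 0.044 without the libraries numbered in the 100s. The interaction of Nt5e was 0.16 with a pseudocount of 10, 0.42 without KO microglia replicate 1 (-0.73 without replicate 3) and 0.65 without the libraries numbered in the 100s. Of the 9 genes without Nt5e, 4 in place of 6 were called between KO macrophages and KO microglia with Ddx3y as a covariate. The causes of these changes were not tested. The setting without the libraries numbered in the 100s leaves 1 library each in the WT and KO microglia groups. Those groups are assumed to vary like the others, and no count is given from that setting. Adora3 in KO against WT macrophages also lost its call with a pseudocount of 10 (-0.60, limma adjusted p = 0.0717), with only those groups fitted (0.0831) and with voom (0.157). Its change there was -1.20 without the 100s. The interaction of Adora3 was called with a pseudocount of 10 (1.704, limma adjusted p = 0.00154). Nt5e was not tested with a filter of 50. That filter also left fewer genes to test. Among the other receptors 2 of 2 were called in microglia and between the WT groups, in place of 4 of 5 each. Among the other enzymes 4 of 6 were called between the WT groups in place of 7 of 11. Among NAD genes 3 of 11 were called in macrophages in place of 5 of 16. Without the 100s, the log2 difference was -0.32 for Slc29a1 between the WT groups and -0.38 for Parp1 in microglia. Xdh in macrophages was not called with robust eBayes (limma adjusted p = 0.0562). Scaling to total reads moved the median of all genes by -0.07 to 0.07. Planned models of raw counts were not run, since the deposited unit is log2. voom on the recovered reads, the scaling to total reads and the setting without the libraries numbered in the 100s were chosen after seeing the data. No paired analysis was possible because the labels give no replicate numbers.

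Depth limits Nt5e in microglia, Adora3 in macrophages, and P2ry14 and Cd38 in WT microglia, where 1 to 24 reads stand behind a group.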
